A study of Homo sapiens with 12 samples.

Results

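The genes described here encode the machinery that copies DNA and mends it. They were found by gene symbol, as families named MCM, GINS, RAD, XRCC, MSH, SMC and POL together with SLF1, among the named rows of a whole-transcriptome array. In all 59 rows met the symbol rule, and with the brightest row kept per gene they gave 56 genes out of 14884 named genes. SLF1 lies outside the symbol pattern and was added with its difference on these arrays already known, so its place at the top of the differences is no independent result. The pattern also covers the ORC, RFC, FANC, ERCC, BRCA and RPA families and the replicative polymerases, whose family members were not analysed here. FANCD2OS, MCM3AP, RADIL and RAD54L2 met the pattern but were given no replication or repair role, so 52 of the 56 genes carry one.

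Expression was measured in HEK293 cells, a human embryonic kidney line transformed with adenovirus DNA, on Human Gene 2.0 ST arrays. The mimic group (6 arrays) had been transfected with a synthetic copy of the human microRNA miR-1825, and the control group (6 arrays) with AllStars Negative Control siRNA. Both groups received 5 nM of RNA with the HiPerfect reagent and were harvested after 24 h, so transfection itself is shared by all 12 arrays and no untransfected cells enter the comparison. The series asks which mRNAs miR-1825, a microRNA tied to amyotrophic lateral sclerosis, acts on.

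DNA replication starts when a ring-shaped helicase made of MCM2 to MCM7 is loaded on DNA and then switched on by the GINS complex. Structural maintenance of chromosomes (SMC) proteins form rings of their own: cohesin holds sister chromatids together, condensin compacts chromosomes for mitosis, and the SMC5/6 complex protects stalled forks and helps repair. The RAD, XRCC and MSH genes take part in recombination, checkpoint signalling, end joining, base excision repair and mismatch repair. Many replication genes are switched on at the entry to S phase by E2F transcription factors, and fast-dividing lines such as HEK293 express most of the machinery.

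The transfected RNA is shown first, because a microRNA finds its mRNA targets mainly through its seed, bases 2 to 8, printed in capitals. The mature miRNA of 18 bases is transcribed from the plus strand of chromosome 20 (chr20:32237830-32237847, GRCh38.p14, RefSeq).
hsa-miR-1825: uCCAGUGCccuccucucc
Target sites in the mRNAs of these genes were not analysed here.

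Promoter sequence was examined because so many of these genes belong to the E2F-regulated class. RefSeq promoters (GRCh38.p14, 250 bases before to 50 bases after a start site) were matched by symbol for 46 of the 56 genes. They were searched on both strands for 4 E2F-type words, TTTGGCGC, TTTGCCGC, TTTCGCGC and TTTCCCGC. At least 1 word was present in 17 of the 46 genes (37%), against 3.99% of all 27305 genes with a promoter of the same length. The holders include MCM2, MCM3, MCM6, MCM7, GINS1, GINS2 and GINS3 of the replicative helicase, and also SLF1, SMC6 and MCM8. A match is a word in the sequence and does not show that a factor binds there. The stretches below show, 5′ to 3′ on the strand of the gene, the match nearest the start site in 3 genes with the higher signals described further on (SLF1, MCM8, SMC6) and in 3 helicase subunits with little difference (MCM2, MCM6, MCM7). Capitals mark the matches, and in MCM2 and MCM6 a match on each strand overlaps, so the capitals run together.
SLF1 (chr5:94618620-94618697, plus strand): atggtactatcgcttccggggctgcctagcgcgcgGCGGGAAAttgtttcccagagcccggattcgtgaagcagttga
MCM8 (chr20:5950643-5950701, plus strand): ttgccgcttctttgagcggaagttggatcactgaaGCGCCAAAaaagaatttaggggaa
SMC6 (chr2:17753835-17753912, minus strand): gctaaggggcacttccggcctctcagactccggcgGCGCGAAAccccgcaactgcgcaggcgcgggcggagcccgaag
MCM2 (chr3:127598378-127598455, plus strand): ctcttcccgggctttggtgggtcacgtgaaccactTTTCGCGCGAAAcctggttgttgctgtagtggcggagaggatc
MCM6 (chr2:135876487-135876564, minus strand): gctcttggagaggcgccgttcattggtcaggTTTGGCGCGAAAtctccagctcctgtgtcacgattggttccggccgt
MCM7 (chr7:100101364-100101441, minus strand): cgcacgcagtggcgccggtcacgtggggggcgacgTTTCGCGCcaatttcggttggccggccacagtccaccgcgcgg
The median log2 fold change was 0.06 in the 17 genes with a word, and the 29 without one had 0.03. Of those with a word 3 were higher at an unadjusted p under 0.05, and of those without one 6 were higher and 1 lower.

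Values are log2 expression as deposited, and the arrays differed little in their medians, which lay between 4.44 and 4.51. Correlations between arrays ran from 0.988 to 0.994 over all 53617 rows. Most of the machinery was well expressed: 47 of the 56 genes lay in the brightest 25% of rows, and the median of the 56 gene means was 8.50 against 5.82 over all named genes. Renal progenitor genes, which mark the embryonic kidney origin of the line, ranged in mean level from 4.42 for PAX8 to 7.86 for SALL1 over the 7 measured. PAX8 thus lay below the array medians. Of markers of other cells, LYZ and CD14 of leukocytes lay at 3.02 and 3.86 and DCN of fibroblasts at 2.67, all below the array medians, while LUM and CD68 lay above them at 5.71 and 6.27. The 7 epithelial markers measured ranged in mean level from 3.33 for ESRP1 to 9.68 for KRT18. KRT18 and EPCAM (7.95) lay above SALL1, and ESRP1 and CLDN4 (4.15) below the array medians. KRT18 has 2 rows and many RefSeq pseudogenes, whose part in its signal was not tested. Of the 7, 0 were higher and 2 lower at an unadjusted limma p under 0.05, CLDN7 with a log2 fold change of -0.22 and KRT18 with -0.10. The background level of the arrays is not known, so a dim value does not show that a gene is silent.

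After the mimic, 39 of the 56 genes had a higher mean and 17 a lower one, and no difference was large. A higher mean was thus seen in 69.6% of the 56, against 50.1% of all named genes and 59.9% of those in the brightest 25% of rows. The widest was that of SLF1, at 1.26-fold, and 0 of the 56 reached 1.5-fold. With limma and Benjamini-Hochberg adjustment over all rows 0 of the 56 passed the threshold of 0.05, and across the array only 0.0112% of rows did. At an unadjusted limma p under 0.05, 9 genes were higher and 2 were lower (16.1% and 3.57% of the 56). Over all named genes 6.69% were higher and 4.19% lower by that rule. The genes of this machinery are bright, and among named genes in the brightest 25% of rows the shares were 11% higher and 3.02% lower, while the 47 replication and repair genes among them had 19.1% higher. Without SLF1 the higher shares were 14.5% of 55 genes and 17.4% of the 46 bright ones. These shares of higher genes lay above their backgrounds, and that of lower genes close to them.

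**Figure D1:**
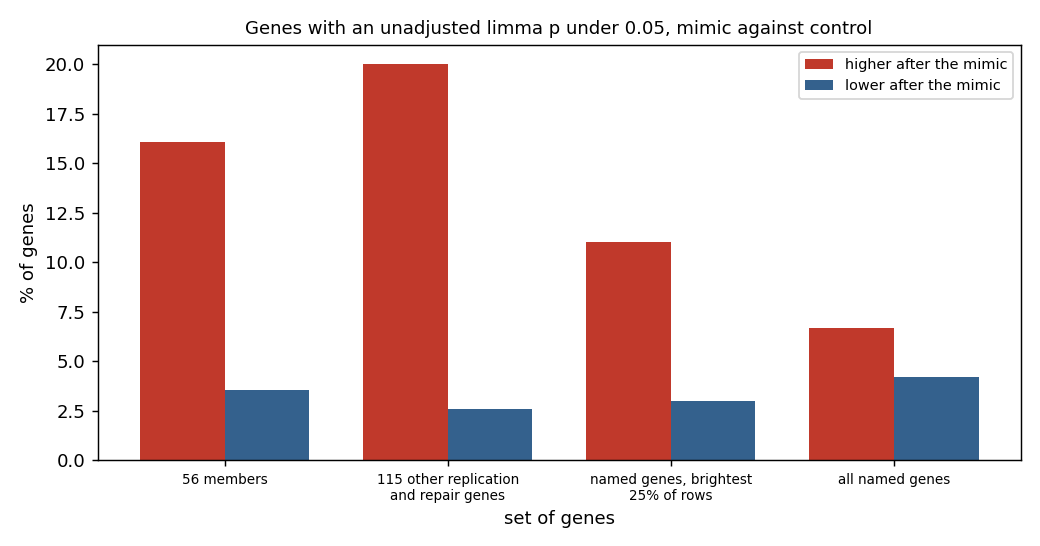
Percent of genes (vertical axis) with an unadjusted limma p under 0.05, higher (left bar) or lower (right bar) after the mimic, in 4 sets of genes. The higher share was 16.1% in the 56 genes and 6.69% in all named genes, and the lower share was 3.57% and 4.19%.

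The median log2 fold change of the 56 genes was 0.03, and that of all named genes was 0.0002. The mean level of the 56 ran from 8.289 to 8.348 in mimic arrays and from 8.216 to 8.303 in control arrays, which overlap. Both the split and the counts moved with the scaling. Quantile normalization gave 32 higher and 24 lower means, with 7 higher and 2 lower genes at an unadjusted p under 0.05, where all named genes had 5.38% higher and 5.27% lower. With each array centred on its median there were 42 higher and 14 lower means, with 11 higher and 0 lower genes, where all named genes had 7.78% higher and 2.71% lower. In 6 of the 56 genes all mimic arrays lay above all control arrays, against 1.34% of named genes, and in 0 they lay below, against 0.403%. These 6 were SLF1, MCM8, SMC4, XRCC1, SMC3 and MCM4, all in the brightest 25% of rows. Of 6432 named genes there, 183 lay wholly above and 31 wholly below, against 6 and 0 of the 47. Without SLF1, 5 of 55 genes lay wholly above. An exact permutation test per gene, over the 924 ways to assign the arrays, called 17 higher and 2 lower genes at p under 0.05. The shares of named genes were 8.78% and 4.86%. SLF1 is among the 17, and no permutation share was computed for bright genes alone. Permutation p values here and below are not adjusted for the number of genes, unlike the limma adjusted p values beside them. Where the groups do not overlap the permutation p is always 0.00216, so it only restates the lack of overlap.

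**Figure D2:**
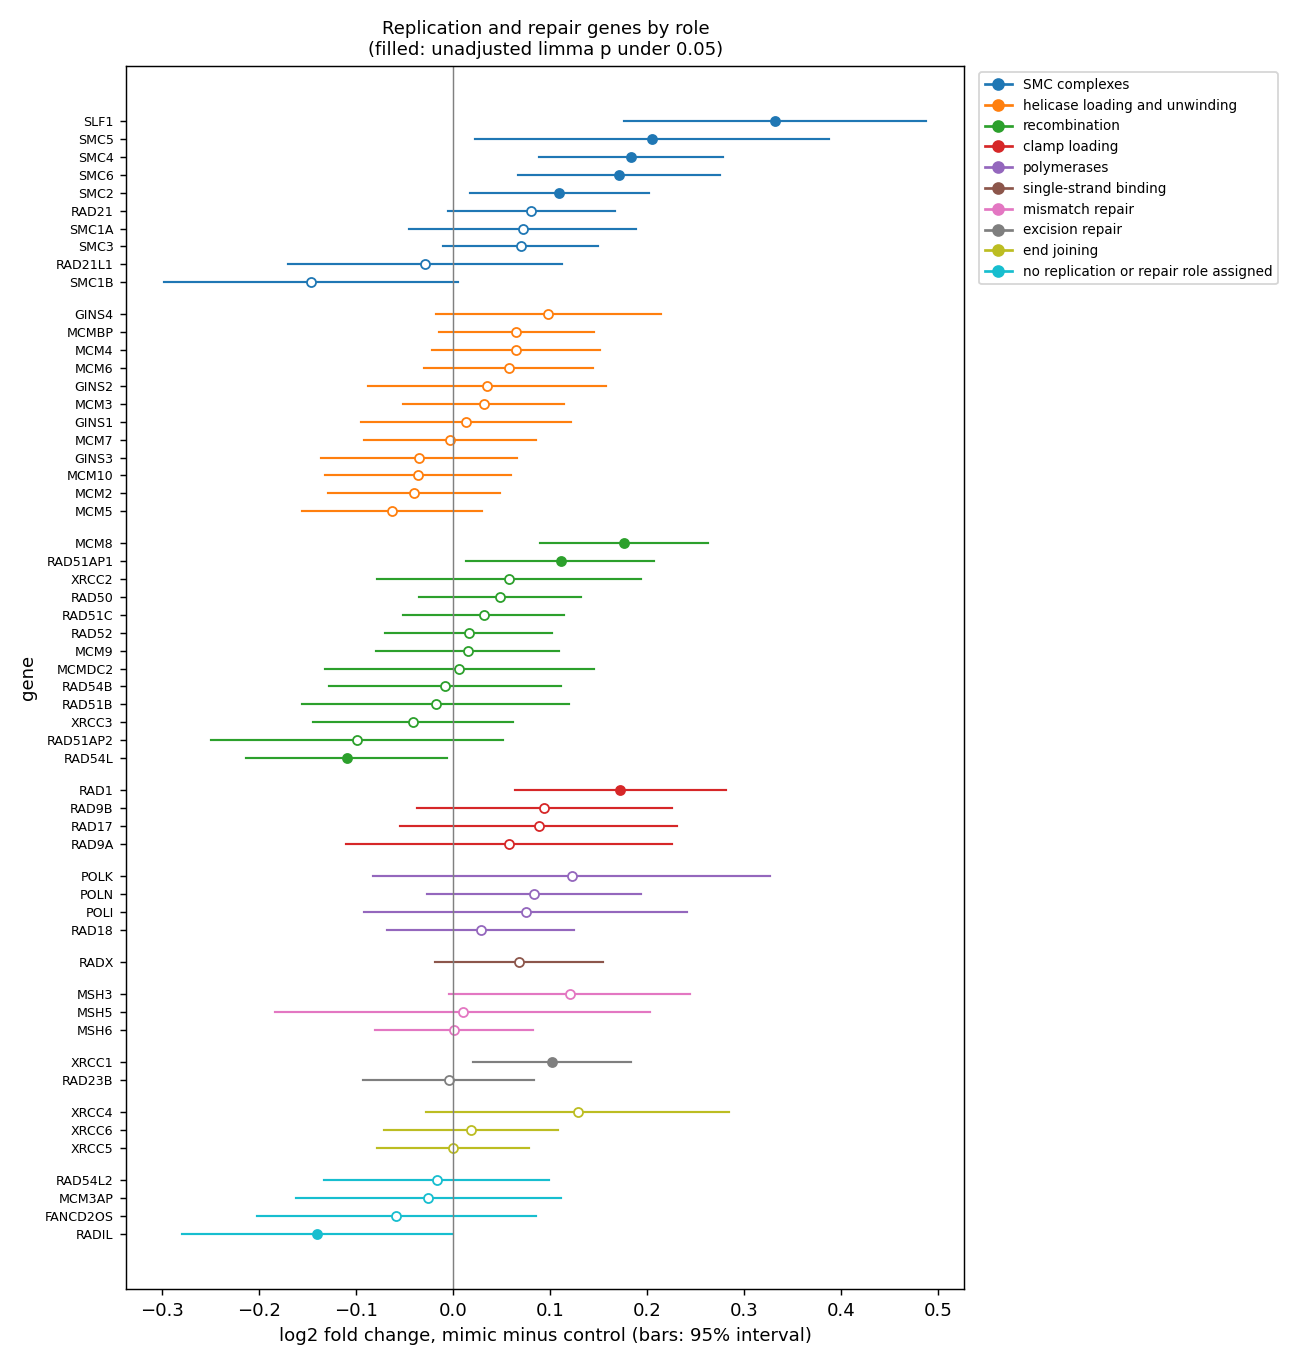
Log2 fold change of each of the 56 genes (horizontal axis, mimic minus control) with its 95% interval from limma, grouped by role and ordered by size within a role. Filled points have an unadjusted p under 0.05. The SMC genes hold 5 of the 9 filled points on the higher side, and no gene of the helicase is filled. Roles were assigned after the values were seen.

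SMC-complex genes made up 5 of the 9 higher genes, and 4 of 8 without SLF1. That is 50% of the SMC genes, or 44.4% without SLF1, against 6.69% of all named genes and 11% of those in the brightest 25% of rows. Genes were assigned to roles after the values were seen, so this grouping is a description. Of the 10 measured 8 had higher means, with the median difference at 0.10 on the log2 scale. Without SLF1, 7 of 9 had higher means and the median difference was 0.08. The 5 genes past the unadjusted threshold were SMC5 and SMC6 with their partner SLF1, and SMC2 and SMC4, the core of condensin. Without mimic replicate 3 the count of 5 was 3, since SMC2 and SMC5 then missed it. The count was 4 with the replicate block, with quantile normalization, and without control replicate 6 or mimic replicate 6. It was 6 with a trend and robust prior, with arrays centred on their medians and without control replicate 4, and 7 with either brightness filter. RefSeq lists a pseudogene each for SMC4, SMC3 and RAD21 whose transcripts could bind the same probes, which was not tested.

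SLF1 (row 16987298) recruits the SMC5/6 complex to damaged DNA. Its values were 7.58 at the lowest, 7.79 at the median and 7.91 at the highest in mimic arrays, against 7.26, 7.47 and 7.54 in control arrays. The groups did not overlap, and control replicates 2 and 6 were the lowest of all. SLF1 was 0.33 log2 units higher (95% interval 0.18 to 0.49, limma adjusted p = 0.214). An exact two-sided permutation test gave p = 0.00216, the smallest that the 924 assignments can give. SLF1 was added with its difference on these arrays known, so neither p is independent support for it.

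SMC5 and SMC6 form the ring of the complex that SLF1 joins. SMC6 (row 16894740) had a lowest, median and highest value of 9.72, 9.85 and 9.91 in mimic arrays, against 9.59, 9.66 and 9.79 in control arrays. Control replicate 5 lay within the mimic range, and the other controls below it. The log2 fold change of SMC6 was 0.17 (95% interval 0.07 to 0.28, limma adjusted p = 0.261, exact permutation p = 0.00433). SMC5 (row 17085779) had 8.45, 8.51 and 8.62 in mimic arrays, against 7.91, 8.38 and 8.49 in control arrays. The groups overlapped, and control replicate 6 stood far below the other controls, which were at 8.29 or more. The log2 fold change of SMC5 was 0.21 (limma adjusted p = 0.418, exact permutation p = 0.00649), and 0.12 without control replicate 6.

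The partner genes of these rings came from a longer list of replication and repair genes outside the symbol rule. Of 15 such SMC partners measured, 13 had a higher mean, 3 were higher at an unadjusted p under 0.05 and 0 were lower. That is 86.7% with a higher mean and 20% higher by the test. The shares were 50.1% and 6.69% of all named genes, and 59.9% and 11% of those in the brightest 25% of rows. NSMCE4A, a subunit of the SMC5/6 complex, had 7.63 ± 0.07 in mimic arrays and 7.46 ± 0.04 in control arrays (SD, n = 6 each), and ESCO2, the acetyltransferase that locks cohesin on chromatin, had 8.34 ± 0.03 and 8.16 ± 0.06. Their groups did not overlap, and their limma adjusted p values were 0.244 and 0.229. STAG2, a cohesin subunit, was the other gene, with a log2 fold change of 0.12. NSMCE1 and NSMCE3, other subunits of the SMC5/6 complex, differed little, with log2 fold changes of 0.03 and 0.04.

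Condensin is represented by its SMC pair. SMC4 (row 16947556) had 10.30, 10.34 and 10.40 as lowest, median and highest value in mimic arrays, against 10.05, 10.18 and 10.24 in control arrays. No control array reached the lowest mimic array. SMC4 was 0.18 log2 units higher (95% interval 0.09 to 0.28, limma adjusted p = 0.229, exact permutation p = 0.00216). SMC2 (row 17087716) had 9.54, 9.58 and 9.66 in mimic arrays, against 9.42, 9.47 and 9.56 in control arrays. Control replicate 4 lay level with the lower mimic arrays. The log2 fold change of SMC2 was 0.11 (limma adjusted p = 0.390, exact permutation p = 0.00649).

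Cohesin genes differed less. SMC3, part of the cohesin ring, had 11.33, 11.35 and 11.37 in mimic arrays, against 11.21, 11.28 and 11.33 in control arrays. The ranges met at their edges without overlap. Its log2 fold change was 0.07 (95% interval -0.01 to 0.15, limma adjusted p = 0.526, exact permutation p = 0.00216). SMC1A, the other SMC protein of the ring, had 0.07, and RAD21, the subunit that closes it, had 0.08. For these 3 genes every mimic array exceeded the control mean. The meiotic cohesin genes SMC1B and RAD21L1 were dim, at means of 3.58 and 3.35 in mimic arrays and 3.73 and 3.38 in control arrays, below the array medians.

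**Figure D3:**
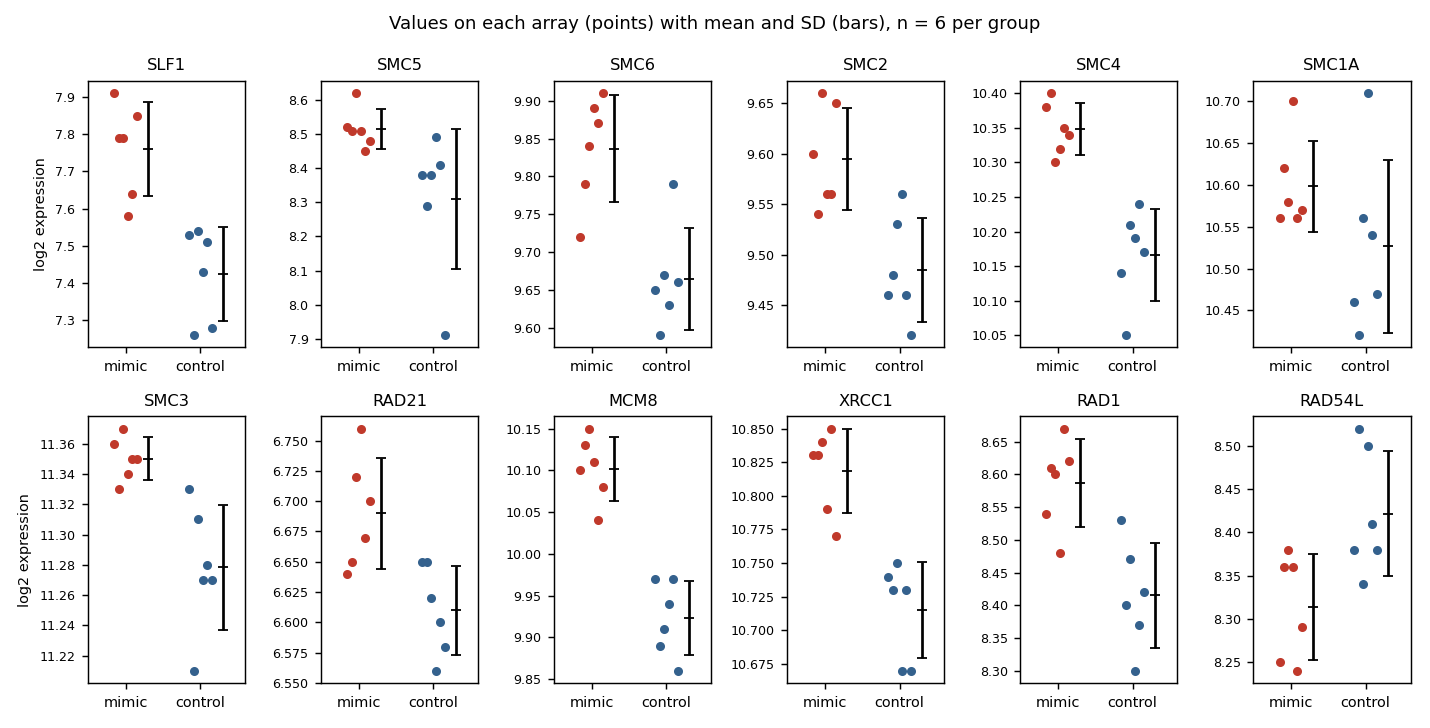
Log2 expression (vertical axis, separate scale in each panel) of 12 genes on each array, mimic on the left and control on the right, with mean and SD bars. SLF1, SMC4, SMC3, MCM8 and XRCC1 show no overlap between the groups, SMC1A overlaps widely, and RAD54L lies lower in mimic arrays.

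The replicative helicase differed little between the groups. Of its 12 genes 7 had a higher mean and 5 a lower one, with 0 at an unadjusted limma p under 0.05 and a median log2 fold change of 0.02. By the exact permutation test 3 of them were under 0.05, each higher: MCM4, MCMBP (p = 0.00649) and MCM6 (p = 0.0455). MCM2 to MCM7, the ring itself, lay between mean levels of 9.62 and 10.89 and had log2 fold changes from -0.06 (MCM5) to 0.07 (MCM4). MCM4 had 10.69, 10.71 and 10.83 in mimic arrays, against 10.61, 10.67 and 10.69 in control arrays, with mimic replicate 3 apart from the rest. Its groups did not overlap, which by itself gives the unadjusted exact permutation p of 0.00216. The limma p of MCM4 was 0.127 unadjusted and 0.593 adjusted. MCM5 had 9.49, 9.59 and 9.65 in mimic arrays, against 9.60, 9.64 and 9.71 in control arrays, and these overlapped.

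The 95% intervals bound what could have been missed in the helicase. That of MCM2 ran from -0.13 to 0.05, that of MCM3 from -0.05 to 0.11, that of MCM6 from -0.03 to 0.14, and that of MCM7 from -0.09 to 0.09. The farthest bounds in the ring were those of MCM4, from -0.02 to 0.15, and MCM5, from -0.16 to 0.03. MCM7 had a mean of 10.83 in both groups, and its direction turned when arrays were centred on their medians. Among the genes that load or activate the ring, GINS4 had a log2 fold change of 0.10, MCMBP, a binding partner of the MCM proteins, 0.07, GINS2 0.04, GINS1 0.01, GINS3 -0.03 and MCM10 -0.04. The direction of GINS1 turned under quantile normalization. GINS4 has a second, dim row with a log2 fold change of 0.09.

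Recombination genes were divided. Of 13, 8 had a higher mean and 5 a lower one, with 2 higher and 1 lower at an unadjusted p under 0.05. That is 61.5% with a higher mean, 15.4% higher and 7.69% lower by the test. Named genes in the brightest 25% of rows had 59.9%, 11% and 3.02%. The share with a higher mean was thus near that background, and the other shares rest on 2 genes and 1 gene. MCM8 (row 16911212), a helicase that works with MCM9 in homologous recombination, had 10.04, 10.11 and 10.15 in mimic arrays, against 9.86, 9.93 and 9.97 in control arrays. The ranges were well apart. The log2 fold change of MCM8 was 0.18 (95% interval 0.09 to 0.26, limma adjusted p = 0.224, exact permutation p = 0.00216). Its partner MCM9 had 0.02, and its direction turned under quantile normalization.

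RAD51AP1, an accessory factor of homologous recombination, had 7.85, 7.93 and 8.04 in mimic arrays, against 7.77, 7.84 and 7.88 in control arrays. The ranges overlapped at mimic replicate 4 (log2 fold change 0.11, limma adjusted p = 0.409, exact permutation p = 0.00866), and RefSeq lists a pseudogene. RAD54L, a DNA translocase of homologous recombination, was lower, with 8.24, 8.32 and 8.38 in mimic arrays, against 8.34, 8.40 and 8.52 in control arrays. Every mimic array was under the control mean, though the ranges overlapped. Its log2 fold change was -0.11 (limma adjusted p = 0.445, exact permutation p = 0.0173). When each of the 12 arrays was left out in turn, RAD51AP1 kept an unadjusted limma p under 0.05 in 8 of 12 fits and RAD54L in 6 of 12.

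The remaining recombination genes had 95% intervals that spanned 0. RAD50, the SMC-like subunit of the break-sensing MRN complex, differed by 0.05 log2 units, and XRCC2, RAD51C, RAD51B and XRCC3, which act in homologous recombination, had 0.06, 0.03, -0.02 and -0.04. RAD52, which anneals single strands, had 0.02 and RAD54B -0.01. MCMDC2 and RAD51AP2, which lay at means of 2.98 and 2.77 over all arrays, were the dimmest of the 56 genes. How far such rows stand above background is not known.

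Of the 4 checkpoint clamp genes within the symbol rule, 4 had a higher mean in the mimic group. Only RAD1 had an unadjusted limma p under 0.05. A higher mean was seen in 50.1% of all named genes and 59.9% of those in the brightest 25% of rows. RAD1 (row 16995140), a subunit of the clamp that RAD17 loads at damaged DNA, had 8.48, 8.61 and 8.67 in mimic arrays, against 8.30, 8.41 and 8.53 in control arrays. Mimic replicate 4 lay within the control range and the other mimic arrays above it. The log2 fold change was 0.17 (95% interval 0.06 to 0.28, limma adjusted p = 0.271, exact permutation p = 0.00433), and RefSeq lists pseudogenes of RAD1. RAD17 had 0.09 and RAD9A, another clamp subunit, 0.06, neither with an unadjusted p under 0.05. RAD9B had 0.09 at a level of 3.70 in mimic arrays and 3.61 in control arrays, below the array medians.

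Of the 2 excision repair and 3 end joining genes among the 56, 1 had an unadjusted limma p under 0.05. Base excision and mismatch genes outside the symbol rule, given below, held 8 higher and 0 lower of 24. XRCC1 (row 16873015), the scaffold of single-strand break repair, had 10.77, 10.83 and 10.85 in mimic arrays, against 10.67, 10.73 and 10.75 in control arrays. The groups did not overlap, and the log2 fold change was 0.10 (limma adjusted p = 0.360, exact permutation p = 0.00216). RAD23B, which helps find lesions for nucleotide excision repair, was at 11.05 in both groups. XRCC5 and XRCC6, the Ku proteins that bind broken ends, had log2 fold changes of 0.0004 and 0.02. The 95% interval of XRCC5, the brightest of the 56 genes, ran from -0.08 to 0.08. XRCC4, which holds DNA ligase at the break, had 0.13 (limma adjusted p = 0.553), with overlapping groups.

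Mismatch repair and translesion genes within the symbol rule gave no unadjusted limma p under 0.05. Mismatch repair genes outside the rule, such as PMS2, are given below. MSH3, which recognises larger loops, had 9.17, 9.22 and 9.33 in mimic arrays, against 8.96, 9.15 and 9.24 in control arrays. Its log2 fold change was 0.12 (limma adjusted p = 0.479, exact permutation p = 0.039). MSH6 had 0.001 and the meiotic gene MSH5 0.01, and the direction of both turned under quantile normalization. MSH5 also has a readthrough gene, MSH5-SAPCD1, whose part in its signal was not tested. The translesion polymerase genes POLK, POLN and POLI had 0.12, 0.08 and 0.08. RAD18, the ubiquitin ligase that calls such polymerases to stalled forks, had 0.03. RADX, which binds single-stranded DNA at forks, had 0.07 (exact permutation p = 0.0108).

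The 4 genes given no replication or repair role had lower means, but roles were assigned after the values were seen. RADIL, an effector of the GTPase Rap in cell adhesion, had 6.40, 6.59 and 6.84 in mimic arrays, against 6.70, 6.75 and 6.80 in control arrays. The mimic arrays spread over more than the whole control range, and mimic replicate 2 was the highest of the 12 arrays. Its log2 fold change was -0.14 (limma adjusted p = 0.462), and it kept an unadjusted limma p under 0.05 in 2 of 12 fits that each left out 1 array. The other 3 had log2 fold changes from -0.06 (FANCD2OS) to -0.02 (RAD54L2), with MCM3AP, an mRNA export factor named for its association with MCM3, at -0.03. RAD54L2 is an ATPase related to RAD54L. Without these 4, 39 of 52 genes had a higher mean, with 9 higher and 1 lower at an unadjusted p under 0.05.

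Other replication and repair genes, whose symbols the rule does not take, also had more higher than lower means. Of 115 measured, 87 had a higher mean, and the median log2 fold change was 0.06. At an unadjusted limma p under 0.05, 23 were higher and 3 were lower (20% and 2.61%), against 6.69% and 4.19% of all named genes and 11% and 3.02% of those in the brightest 25% of rows. None of the 115 passed the adjusted limma threshold. The counts were 14 and 5 after quantile normalization and 25 and 1 with arrays centred on their medians, and the shares of all named genes moved as given above. The count of 26 was 17 without mimic replicate 2 and 15 without mimic replicate 3. The replication list held 6 higher and 1 lower of 27. DSCC1, part of a clamp loader that acts in cohesion, had the smallest p of the replication list, with 8.31 ± 0.06 in mimic arrays and 8.06 ± 0.12 in control arrays (SD, n = 6 each; log2 fold change 0.25, limma adjusted p = 0.229).

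Of the 3 lower genes CDT1, which loads the MCM ring at origins, had 9.29 ± 0.03 in mimic arrays and 9.40 ± 0.06 in control arrays (SD, n = 6 each), with no overlap. MAD2L2, a subunit of polymerase zeta and of the shieldin complex, and CENPX, which is shared by the kinetochore and the Fanconi anaemia pathway, had log2 fold changes of -0.12 each. Base excision and mismatch genes outside the rule held 8 higher and 0 lower of 24, among them MBD4, a thymine glycosylase gene, at 0.19 and PMS2, a mismatch repair gene, at 0.18. RefSeq lists many pseudogenes of PMS2, whose part in its signal was not tested. Recombination and crosslink genes held 3 higher and 1 lower of 29, with RECQL, a helicase gene, at 0.15 and USP1, a deubiquitinase of the Fanconi pathway, at 0.09. Checkpoint genes held 3 higher and 0 lower of 12, with ETAA1, an activator of the ATR kinase, at 0.21 and the kinase gene CHEK1 at 0.10, the other being HUS1B, dim at 3.44 in mimic arrays and 3.23 in control arrays. The 5 translesion genes, HLTF at 0.09 and PRIMPOL at 0.13 among them, held 0, and of 3 end joining genes MAD2L2 was the only one, APLF having 0.06.

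Genes of the G2 and M phases leaned the same way as the SMC genes. Of 24 measured, 19 had a higher mean, 9 were higher and 0 lower at an unadjusted limma p under 0.05, and the median log2 fold change was 0.08. That is 79.2% with a higher mean and 37.5% higher by the test, against 59.9% and 11% of named genes in the brightest 25% of rows. Their mean level ran from 9.63 to 9.69 in mimic arrays and from 9.57 to 9.61 in control arrays. The G2/M ranges lay apart. The 9 SMC-complex genes other than SLF1 had mean levels from 8.170 to 8.247 in mimic arrays and from 8.087 to 8.169 in control arrays, so mimic replicate 5 was level with control replicates 4 and 5. The MCM2 to MCM7 ranges overlapped, at 10.44 to 10.51 in mimic arrays and 10.44 to 10.50 in control arrays. CCNB1, the cyclin of mitotic entry, was 0.20 log2 units higher (limma adjusted p = 0.189) and CKAP2, a spindle gene, 0.12. In whole-culture RNA a larger share of cells in a phase and more RNA per cell cannot be told apart, and the part of the G2/M genes in the SMC difference was not tested.

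**Figure D4:**
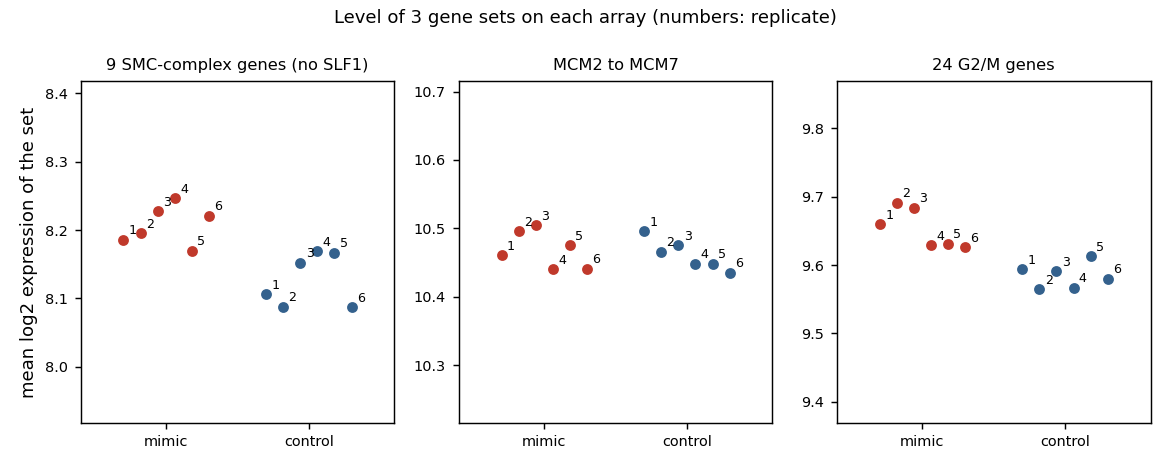
Mean log2 expression (vertical axis, each panel spanning 0.5 units) of 3 gene sets on each array, mimic on the left and control on the right, with replicate numbers. The G2/M levels lie apart, the lowest mimic level of the 9 SMC genes (SLF1 left out) meets the highest control levels, and the MCM2 to MCM7 levels overlap.

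Targets of p53, which DNA damage raises, did not show a common direction. Of 15 targets listed 8 were measured, and 3 of these had a higher mean. At an unadjusted limma p under 0.05, 1 was higher (SESN1, log2 fold change 0.11) and 1 lower (BBC3, -0.19). The mean level of the 8 ran from 7.64 to 7.74 in mimic arrays and from 7.61 to 7.78 in control arrays, which overlap. Whether p53 is active in these cells, transformed with adenovirus DNA, was not tested. These values therefore do not show whether DNA was damaged.

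When the limma test was confined to the brightest 25% of rows 3 of the 47 genes tested passed, SLF1 (adjusted p = 0.038), MCM8 (0.0259) and SMC4 (0.0324), all higher. In that fit 1.81% of rows passed. These calls were not stable: 0 of the 47 passed without control replicate 2 or 4 or mimic replicate 1, 2 or 3, and 1, MCM8, without mimic replicate 6. Leaving out any other array gave 2 to 4 calls. With a trend and robust prior and all rows kept, MCM8 was the only one of the 56 to pass (limma adjusted p = 0.0342).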

How the data were processed

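Per the submitters' processing notes the authors used Affymetrix Expression Console. No version or setting is given in the sources used here. Values from 1.62 to 14.4 were deposited and taken to be on a log2 scale. Per the labels no replicate is stated to be a separate culture, so p-values measure the spread between these arrays, which may be technical.

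Of 53617 rows, 16098 had 1 gene symbol in the platform annotation, and all matched RefSeq identifiers. The row with the highest mean over the 12 arrays stood for a gene. limma 3.58.1 in R 4.3.3 (lmFit, eBayes, no trend) was fitted to all rows, mimic minus control, with Benjamini-Hochberg adjustment across all rows and a threshold of 0.05. It was tested on simulated data. An unadjusted p under 0.05 is used for description.

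The genes, lists and rule were chosen with earlier results of these data known. Named genes were SLF1, the 12 higher and the 12 lower genes with the smallest p, the 2 smallest p per role and per list, and the 3 brightest and 3 dimmest. The other genes were named, and roles assigned, after values were seen. Replicate numbers were not taken as pairs: same-numbered deviations correlated between -0.113 and 0.084. Alternatives were a replicate block, a trend prior, 2 scalings, 2 brightness filters, averaged rows, permutation and leaving out each array.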

Additional observations from a re-analysis of the deposited data

Results flagged for a closer look

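The 56 genes and 18 named others were examined in each group of 6 arrays, 148 such groups in all, for a single array separated from the other arrays. This held in 12 groups, and chance alone flags about 1 in 20. Among mimic arrays, MCM4 was highest in replicate 3 at 10.83 (others 10.69 to 10.74), POLN highest in replicate 6 at 6.12 (others 5.96 to 6.01) and MSH6 highest in replicate 6 at 9.67 (others 9.57 to 9.61). RAD51C was lowest in mimic replicate 4 at 9.20 (others 9.29 to 9.33), and RAD51AP2 in mimic replicate 3 at 2.50 (others 2.71 to 2.81). SESN1 was highest in mimic replicate 3 at 9.21 (others 9.07 to 9.10). Among control arrays, replicate 6 was lowest for SMC5 at 7.91 (others 8.29 to 8.49), for MSH5 at 6.69 (others 7.06 to 7.26) and for XRCC3 at 6.38 (others 6.49 to 6.55). That array was also the lowest of the 12 in the mean of the 56 genes, at 8.216 (others 8.257 to 8.348). The same held for the mean of named genes at or above the median row level, at 7.016 (others 7.026 to 7.057). SMC1B was lowest in control replicate 1 at 3.55 (others 3.72 to 3.81), RAD51B highest in control replicate 3 at 4.53 (others 4.18 to 4.29) and MBD4 highest in control replicate 5 at 8.31 (others 8.10 to 8.17).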

How the results depend on the processing

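The number of the 56 genes past the adjusted threshold, 0 in the fit to all rows, was 1 when the prior had a trend and was robust. It was 3 in the brightest 25% of rows and 0 in every fit that left out 1 array. The number at an unadjusted p under 0.05, 11, was 17 in the brightest 25% of rows, where named genes also had larger shares (15.4% higher and 4.98% lower), 19 by the exact permutation test, 10 without SLF1 (a check added after seeing the data) and 8 to 11 with 1 array left out. Their median log2 fold change, 0.0335, was 0.0578 among rows at or above the median level and 0.0227 to 0.0512 with 1 array left out. The lowest came without control replicate 6 and the highest without control replicate 1. The 26 other replication and repair genes became 41 under that prior, 41 in the brightest 25% of rows, and 15 to 27 with 1 array left out. With the replicate block, 8 of the 56 genes and 16 of the others had an unadjusted p under 0.05, although the numbers did not pair the arrays. In the brightest 25% of rows, a filter whose added checks were chosen after seeing the data, the 3 calls became 0 with the replicate block and 0 to 4 with 1 array left out. They were 0 without control replicate 2 or 4 or mimic replicate 1, 2 or 3, and 1 without mimic replicate 6. The cause of these shifts was not tested. Genes with log2 fold changes near 0 turned direction. After quantile normalization XRCC6 had -0.0061, RAD52 -0.0054, MCM9 -0.0133, GINS1 -0.0138, MSH5 -0.0131, MSH6 -0.0243 and XRCC5 -0.0358. With arrays centred on their medians RAD54B had 0.007, RAD23B 0.0109 and MCM7 0.012. With 1 array left out RAD21L1 ranged from -0.0656 to 0.0081, MCM3AP from -0.0576 to 0.0101, RAD54L2 from -0.0365 to 0.0132, RAD51B from -0.0385 to 0.0313, GINS1 from -0.0068 to 0.0364 and RAD54B from -0.0435 to 0.013. Likewise MSH5 ranged from -0.0639 to 0.0519, MCMDC2 from -0.0368 to 0.0348, RAD23B from -0.0154 to 0.0095, MCM7 from -0.0184 to 0.0152, MSH6 from -0.0115 to 0.0095 and XRCC5 from -0.0073 to 0.0095. Of all single-gene values under the alternatives 1261 kept their direction and side of the adjusted threshold, 47 turned direction and 11 passed the threshold anew. The number of arrays limits the precision, and background signal, which these values do not show, limits what the dim rows can tell.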
